A study of Mus musculus with 7 samples.

Results

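The genes described here encode splicing factors, hnRNP proteins and related RNA-binding proteins of the mouse embryonic stem cell line CCE during retinoic acid treatment. They were taken from the deposited table by symbol, as every gene whose name starts with Srsf, Sfrs, Hnrnp, Sf3a, Sf3b, Snrp, Prpf or Rbm followed by a digit or a letter. This gave 108 of the 12071 gene symbols in the table. They had 157 transcripts, and each of the 27 symbols with more than 1 transcript was represented by the transcript of highest mean. The table holds older names, and 22 of the 108 genes have another current symbol in RefSeq, so that Sfrs1 is today's Srsf1, Rbm9 is Rbfox2 and Sfrs18 is Pnisr. By name and role the genes fall into 8 Sm core genes, 4 genes of U1 and U2 particle proteins, 8 SF3a and SF3b genes, 13 Prpf genes, 9 SR protein genes, 10 SR-related genes, 18 hnRNP genes and 38 Rbm genes.

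Introns are removed by the spliceosome, which is assembled on each intron from small nuclear ribonucleoproteins (snRNPs), each an RNA held by a ring of Sm proteins and joined by proteins of its own. SR proteins bind exons and recruit the machinery, whereas hnRNP proteins coat the nascent transcript and often repress the use of a splice site. The balance of SR and hnRNP proteins sets many alternative splicing choices, and embryonic stem cells are known for splicing patterns of their own that shift on differentiation.

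CCE cells are mouse embryonic stem cells grown without feeder cells. On day 0 the cells had leukemia inhibitory factor (LIF), which keeps mouse stem cells undifferentiated, and the vehicle DMSO, and on days 1 to 6 they had 5 µM retinoic acid and no LIF. Each day had 1 library of ribosomal-RNA-depleted total RNA, which makes 7 libraries, and whether each day was a culture of its own is not stated. Loss of LIF, retinoic acid and time in culture cannot be told apart in this design.

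The table gives reads per transcript on the log2 scale, scaled so that the libraries have nearly the same total, and a value in the text is this log2 value unless another scale is named. The listed transcripts held 7194325 to 17923852 reads per library, the fewest on day 6. Day 6 stood apart by transcript length, with a Spearman correlation of -0.78 between length and the day 6 minus day 5 difference across 7242 genes, against 0.25 for day 5 minus day 0, so days 0 to 5 are described first and day 6 apart. The stem cell markers Pou5f1, Dppa5a, Sox2 and Zfp42 had values of 12.25 to 14.40 on day 0, and the summed value of 8 such markers was 11.11 on day 5, against 16.29 on day 0. Over the same days the summed value of 12 extraembryonic endoderm markers was 18.16 on day 5, against 14.12 on day 0, and that of 13 proliferation genes was 15.30 on day 5, against 16.63 on day 0.

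Over days 0 to 5 falls outnumbered rises among the splicing and hnRNP genes. All 8 Sm core genes and 6 of 8 SF3a and SF3b genes fell, and Rbmx, Rbms1 and Prpf39 had the steepest of the rises. A mean log2 value above 8.40 over all 7 libraries, day 6 included, was reached by 99 of the 108 genes. A straight line over days 0 to 5 was fitted in limma, p-values were adjusted by Benjamini and Hochberg's method over the 7242 genes of the table that reached this level, and a gene was called at an adjusted p under 0.05. By this test 42 of the 99 genes fell, 12 rose and 45 were not called. The falls made up 42.4% of the 99 genes, against 26.8% of all genes kept, and the rises 12.1%, against 25.7% of all genes kept. Their median slope was -0.08 log2 units per day, beside -0.001 for all genes kept. In bulk RNA, fewer cells of a type and less RNA per cell cannot be told apart. The spread behind these tests is that of 6 single libraries around a line, with no replicate of any day.

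The balance between falls and rises depended on single libraries more for the rises. Without day 0, 25 genes fell and 2 rose, and without day 4, 28 fell and 1 rose. Without day 1 the rises numbered 5 and without day 5 they numbered 6. All 42 falls and all 12 rises kept their sign whichever of the 6 libraries was left out, and 21 falls and 1 rise, that of Prpf39, stayed called each time. Centring the 6 libraries on their median gave 54 falls and 7 rises, so rises made up 11.5% of called genes against 22.2% with the deposited scaling. This centring lowers the slope of every gene kept by the same amount, for Sf3b1 from -0.007 to -0.037. The shift towards falls is therefore not particular to the splicing genes. A correction for transcript length left 36 of the 42 falls and 10 of the 12 rises called.

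**Figure D1:**
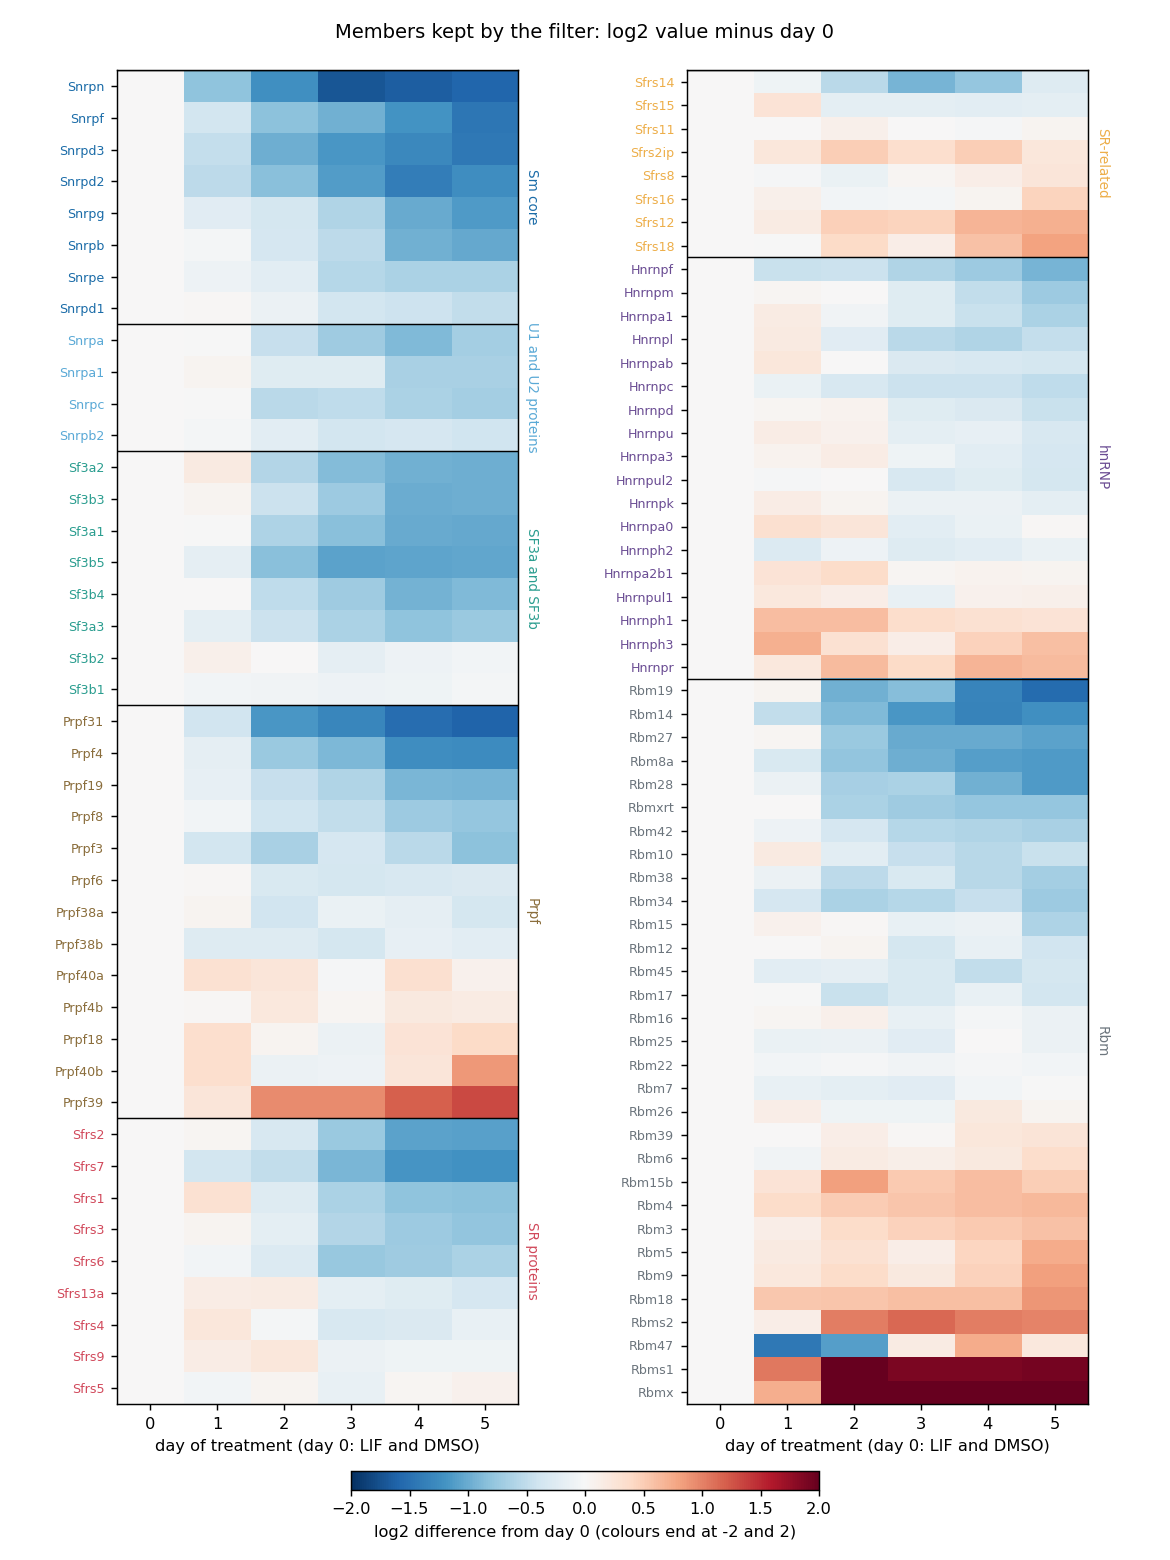
Log2 value minus the day 0 value (colour) for the 99 genes kept, on days 0 to 5 (columns, 1 library each), grouped by family and ordered by slope. The 8 Sm core genes and 6 of 8 SF3 genes are blue by day 3, and Rbms1 and Rbmx at the bottom right are the deepest red.

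**Figure D2:**
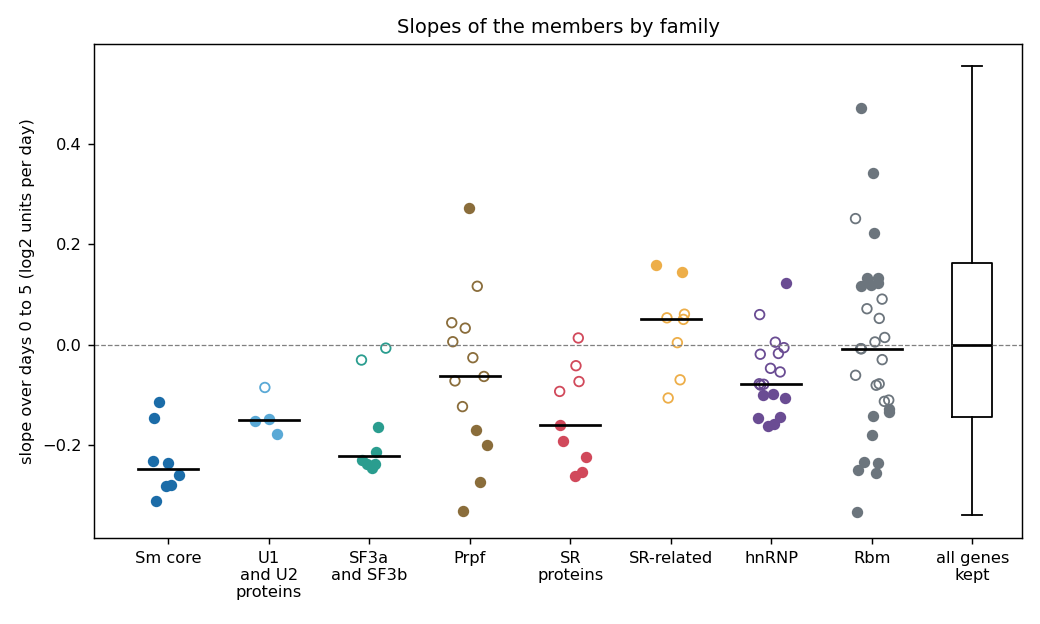
Slope over days 0 to 5 (log2 units per day) of each gene kept, by family, with filled points for genes called at an adjusted p under 0.05, open points for the others and a black line at the family median. The box on the right gives the median and quartiles of all 7242 genes kept, with whiskers at the 5th and 95th percentiles. The Sm core and SF3 medians lie at -0.25 and -0.22, and the SR-related median lies above 0.

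All 8 Sm core genes, whose proteins form the ring around the small nuclear RNAs, fell from day 0 to day 5, with a median slope of -0.25. Of all genes kept 26.8% fell. Snrpn encodes SmN, a tissue-restricted relative of SmB, and lies at chr7:67127387-67150042 (-) in mm9. It had values of 12.46, 11.66, 11.23, 10.76, 10.82 and 10.88 on days 0 to 5. Its slope was -0.31 ± 0.070 (SE, adjusted p = 0.0117, limma), and it was 3.00-fold lower on day 5 than on day 0. Day 3 was its lowest day and its largest step came already on day 1. A row for Snurf, the other reading frame of the same transcript, held the same value as Snrpn in 7 of 7 libraries, so the reads of the pair cannot be told apart.

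The ring proteins SmF, SmD3 and SmD2 are encoded by Snrpf, Snrpd3 and Snrpd2. Snrpf (chr10:93045774-93052403 (-), mm9) had values of 10.83, 10.47, 10.01, 9.87, 9.64 and 9.39 on days 0 to 5, a drop on every day. Snrpd3 (chr10:74980786-74998185 (+), mm9) had 11.36, 10.89, 10.39, 10.20, 10.07 and 9.94 on the same days and also declined daily. Snrpd2 (chr7:19735186-19738075 (+), mm9) had 11.50, 10.98, 10.66, 10.39, 10.12 and 10.26, with its lowest value on day 4. Day 5 minus day 0 was -1.44 (-1.59 to -1.29) for Snrpf, -1.42 (-1.55 to -1.30) for Snrpd3 and -1.24 (-1.36 to -1.13) for Snrpd2, with exact binomial 95% intervals of the reads that cover counting error only. The slopes were -0.28 ± 0.035, -0.28 ± 0.044 and -0.26 ± 0.047 (SE, limma adjusted p = 0.00288, 0.00415 and 0.00597), and all 3 calls held without each library in turn.

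Snrpg and Snrpb, for the ring proteins SmG and SmB, had smaller slopes. Snrpg had 11.75, 11.53, 11.40, 11.15, 10.74 and 10.62 and Snrpb had 11.97, 11.92, 11.63, 11.44, 11.01 and 10.94 on days 0 to 5, and on day 1 Snrpb was level. Their slopes were -0.24 ± 0.031 and -0.23 ± 0.032 (limma adjusted p = 0.00289 and 0.00330). Snrpe and Snrpd1, for SmE and SmD1, had the shallowest falls of the ring, with slopes of -0.15 ± 0.035 and -0.11 ± 0.033 (limma adjusted p = 0.0140 and 0.0252). Snrpd1 had 10.31, 10.34, 10.19, 9.94, 9.89 and 9.82 on days 0 to 5.

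The Sm genes make short transcripts, with a median length of 712 nt against 3043.5 nt for all genes kept, and length moved with the day 5 minus day 0 difference across genes. After the length correction 5 of the 8 stayed called, with a median slope of -0.15. Snrpg then had a slope of -0.11 (adjusted p = 0.0525), Snrpe -0.03 (adjusted p = 0.509) and Snrpd1 -0.02 (adjusted p = 0.602, limma). Leaving out day 0 took the number of called Sm genes to 5. The call of Snrpn was lost without day 0 (adjusted p = 0.0678), that of Snrpe without day 0 or day 4 (0.0587 and 0.0580), and that of Snrpd1 without day 0, 1, 4 or 5 (0.0609 to 0.0869).

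The promoters of 4 Sm genes that declined together are shown with those of Rbmx and Prpf39, the genes with the largest and the most stable rise, so that their letters can be compared. Each is the RefSeq window from 250 bases before to 50 bases after the annotated start on GRCm38.p6, written along the gene's strand, with matches to 4 motifs in capitals. The motifs, searched on both strands, were the E-box CACGTG, the ETS site CCGGAAGT, the SP1 box GGGCGG and the CCAAT box CCAAT. The windows are chr7:19149588-19149887 (+) for Snrpd2, chr10:75517792-75518091 (+) for Snrpd3, chr10:93589609-93589908 (-) for Snrpf, chr6:86371290-86371589 (+) for Snrpg, chrX:57392987-57393286 (-) for Rbmx and chr12:65036084-65036383 (+) for Prpf39.
Snrpd2: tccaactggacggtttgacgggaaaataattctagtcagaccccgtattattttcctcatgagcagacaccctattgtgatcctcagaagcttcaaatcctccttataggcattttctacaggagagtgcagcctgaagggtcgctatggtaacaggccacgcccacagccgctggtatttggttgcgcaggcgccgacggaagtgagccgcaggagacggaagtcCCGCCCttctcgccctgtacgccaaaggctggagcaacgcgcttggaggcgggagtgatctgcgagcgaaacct
Snrpd3: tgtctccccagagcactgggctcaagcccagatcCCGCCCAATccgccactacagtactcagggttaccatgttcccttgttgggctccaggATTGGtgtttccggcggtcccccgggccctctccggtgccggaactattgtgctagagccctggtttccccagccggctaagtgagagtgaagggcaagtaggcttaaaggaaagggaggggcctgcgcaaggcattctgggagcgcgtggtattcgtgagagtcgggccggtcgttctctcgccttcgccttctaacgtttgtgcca
Snrpf: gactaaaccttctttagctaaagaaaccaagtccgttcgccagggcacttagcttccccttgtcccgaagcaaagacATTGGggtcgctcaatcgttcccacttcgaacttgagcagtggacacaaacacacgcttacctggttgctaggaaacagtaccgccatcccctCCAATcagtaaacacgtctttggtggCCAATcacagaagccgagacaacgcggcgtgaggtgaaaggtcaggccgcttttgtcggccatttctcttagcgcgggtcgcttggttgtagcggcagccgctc
Snrpg: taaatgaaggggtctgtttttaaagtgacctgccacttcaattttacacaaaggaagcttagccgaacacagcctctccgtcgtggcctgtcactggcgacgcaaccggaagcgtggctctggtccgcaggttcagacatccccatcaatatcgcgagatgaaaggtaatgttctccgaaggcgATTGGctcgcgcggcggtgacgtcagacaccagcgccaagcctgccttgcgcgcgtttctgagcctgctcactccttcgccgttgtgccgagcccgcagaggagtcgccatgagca
Rbmx: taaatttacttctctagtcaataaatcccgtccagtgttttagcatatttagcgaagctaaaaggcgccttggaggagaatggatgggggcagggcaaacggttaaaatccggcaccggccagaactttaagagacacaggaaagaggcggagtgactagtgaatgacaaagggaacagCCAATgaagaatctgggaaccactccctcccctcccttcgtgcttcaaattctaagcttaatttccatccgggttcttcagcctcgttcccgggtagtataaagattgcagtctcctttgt
Prpf39: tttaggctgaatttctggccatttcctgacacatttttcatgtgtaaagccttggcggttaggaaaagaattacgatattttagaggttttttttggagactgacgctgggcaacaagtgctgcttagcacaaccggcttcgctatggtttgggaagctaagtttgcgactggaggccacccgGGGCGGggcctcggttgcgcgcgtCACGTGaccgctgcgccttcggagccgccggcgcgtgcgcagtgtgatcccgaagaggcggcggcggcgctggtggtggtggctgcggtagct
Snrpf has 3 CCAAT boxes and no other match, and Snrpg has 1 CCAAT box and no other match. Snrpd3 has 2 CCAAT boxes, of which the upstream one overlaps its SP1 box, and Snrpd2 has 1 SP1 box alone. Rbmx has 1 CCAAT box and no other match, as Snrpg does, and Prpf39 has an SP1 box and the only E-box among the 6 windows. RefSeq windows were found for 94 of the 108 genes, and a CCAAT box was in 52.1% of them against 43.6% of 5847 genes kept with a window. The SP1 box was in 60.6% against 75.1%, the E-box in 14.9% against 13.0%, and the ETS site in 14.9% against 11.3%. The CCAAT box was in 52.8% of the 36 falling and 55.6% of the 9 rising genes with a window. These shares describe letters in the windows only.

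Of the 4 genes of U1 and U2 particle proteins 3 fell, where 26.8% of all genes kept fell. Snrpa and Snrpc encode proteins of the U1 particle, which reads the start of the intron, and Snrpa1 and Snrpb2 encode proteins of the U2 particle. Snrpa had 11.67, 11.66, 11.22, 10.97, 10.80 and 10.99 on days 0 to 5, Snrpc had 10.79, 10.78, 10.26, 10.29, 10.16 and 10.11 and Snrpa1 had 10.09, 10.14, 9.85, 9.85, 9.45 and 9.44, each lower on days 4 and 5 than on days 0 and 1. The 3 fell, with slopes of -0.18 ± 0.044, -0.15 ± 0.039 and -0.15 ± 0.037 (limma adjusted p = 0.0156, 0.0197 and 0.0153), and Snrpb2 was not called (slope -0.085 ± 0.033, adjusted p = 0.0699). The call of Snrpa was lost without day 0 or 4 (adjusted p = 0.0732 and 0.0580), that of Snrpa1 without day 4 or 5 (0.0613 and 0.0529) and that of Snrpc without day 0, 1 or 4 (0.0506 to 0.0897). After the length correction only Snrpa of the 4 was called (slope -0.11, limma adjusted p = 0.0356).

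SF3a and SF3b, which bind the branch site as parts of the U2 particle, split into 6 genes that fell and 2 that were not called. The falls were 75% of these genes, against 26.8% of all genes kept. Sf3a1 (chr11:4060356-4082544 (+), mm9) had 12.55, 12.54, 11.94, 11.71, 11.54 and 11.54 on days 0 to 5, and Sf3b3 had 13.22, 13.28, 12.79, 12.49, 12.22 and 12.24. Both were level on day 1 and stepped down from day 2. Sf3a2 had 11.11, 11.30, 10.53, 10.24, 10.14 and 10.14, with its highest value on day 1. The slopes of Sf3a1, Sf3b3 and Sf3a2 were -0.24 ± 0.041, -0.24 ± 0.037 and -0.25 ± 0.054 (limma adjusted p = 0.00521, 0.00400 and 0.0108). Sf3b5, Sf3b4 and Sf3a3 also fell, with slopes of -0.23, -0.21 and -0.16. All 6 falls stayed called after the length correction, and without day 0 those of Sf3b5 and Sf3a3 were lost (adjusted p = 0.0808 and 0.0542).

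Sf3b1, the largest SF3b protein and the one that clasps the branch site, was not called. It had values of 13.06, 13.00, 12.99, 12.96, 12.98 and 13.03 on days 0 to 5, backed by 3987 to 7328 reads per library. Its slope was -0.007 ± 0.025 (limma adjusted p = 0.823), and day 5 minus day 0 was -0.03 (-0.09 to 0.02). After the length correction the slope of Sf3b1 was -0.075 (limma adjusted p = 0.0842). Sf3b2 was also not called, with a slope of -0.031 ± 0.029 (adjusted p = 0.395). The difference between these genes and the other SF3 genes was not tested.

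**Figure D3:**
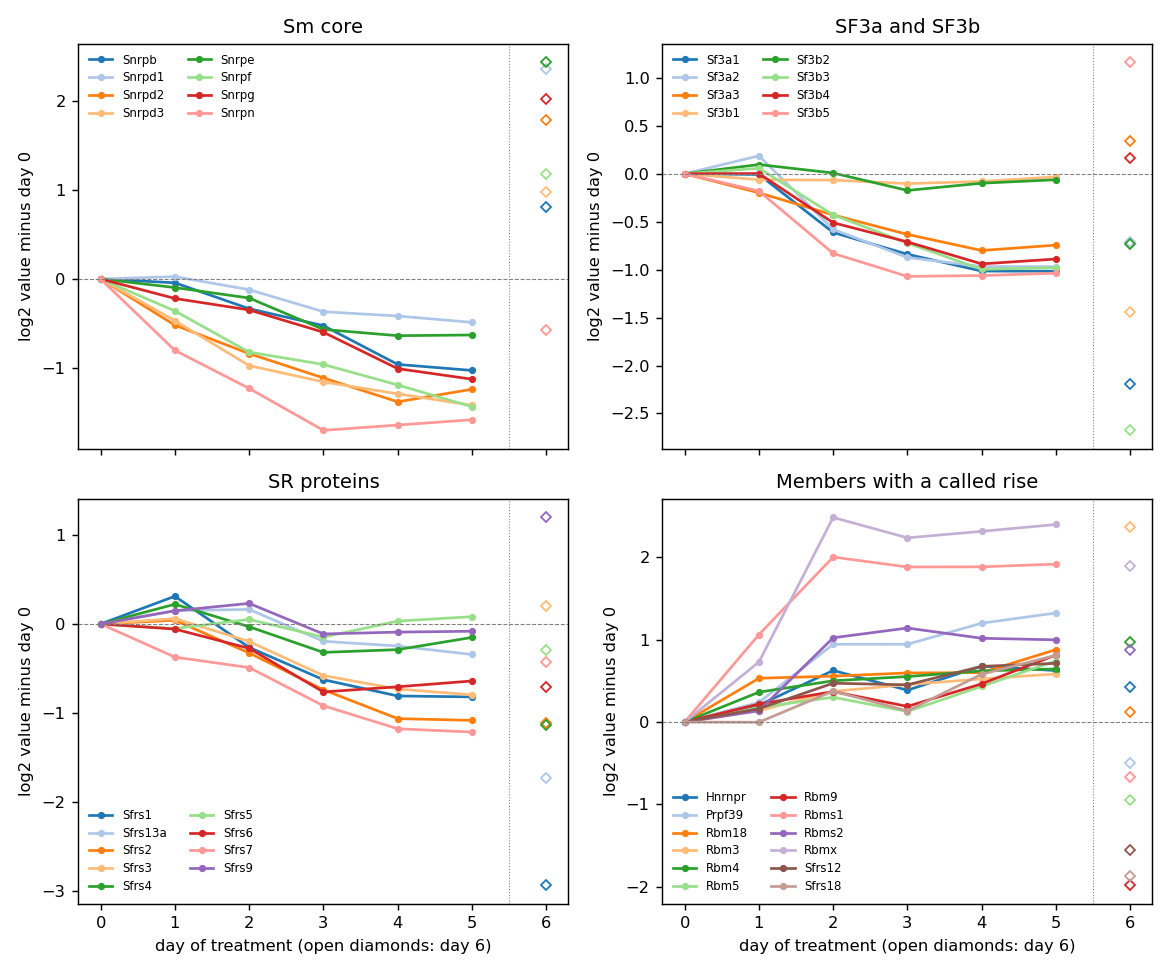
Log2 value minus day 0 (vertical axis) by day (horizontal axis) for the Sm core, SF3a and SF3b, SR protein genes and the 12 genes with a called rise, with lines over days 0 to 5 and open diamonds for day 6. The Sm genes end between -0.49 and -1.59 on day 5 and Sf3b1 stays near 0, while on day 6 the values spread widely.

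The Prpf genes, which encode the proteins of the U4/U6 and U5 particles and of the complexes that activate the spliceosome, moved in both directions. Of the 13 Prpf genes 30.8% fell and 7.7% rose, against 26.8% and 25.7% of all genes kept. Prpf31, which clamps U4 to U6 and is mutated in retinitis pigmentosa, lies at chr7:3581586-3594084 (+) in mm9. It had 11.47, 11.10, 10.31, 10.16, 9.95 and 9.87 on days 0 to 5 and was 3.04-fold lower on day 5 than on day 0, the largest difference of the 42 falling genes. Its slope was -0.33 ± 0.052 (limma adjusted p = 0.00411). Prpf4, another U4/U6 protein, had its highest value of 10.89 on day 0 and its lowest of 9.64 on day 5, and a slope of -0.27 ± 0.040 (adjusted p = 0.00342, limma).

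Prpf8, the U5 protein at the catalytic centre, had 14.60, 14.54, 14.20, 14.11, 13.88 and 13.83 on days 0 to 5 and had the most reads of the 99 genes on day 0, 12913. Prpf19, the ubiquitin ligase of the activating complex, had 12.39, 12.23, 11.93, 11.80, 11.48 and 11.46. Their slopes were -0.17 ± 0.026 and -0.20 ± 0.029 (limma adjusted p = 0.00387 and 0.00340), and the 4 falls of this family held without each library in turn. Prpf39, a protein that works with U1, was the only Prpf gene that rose. It lies at chr12:66137320-66164373 (+) in mm9, had 8.60, 8.84, 9.55, 9.55, 9.80 and 9.92 on days 0 to 5, and day 5 minus day 0 was 1.32 (1.10 to 1.55). Its slope was 0.27 ± 0.047 (limma adjusted p = 0.00516) and its main step came between days 1 and 2. The other 8 Prpf genes were not called, among them Prpf3, the partner of Prpf4, with a slope of -0.12 ± 0.046 (adjusted p = 0.0597).

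Of the 9 SR protein genes 5 fell and none rose by limma, with a median slope of -0.16, and Sfrs5 alone had a slope above 0. The falls were 55.6% of the 9, against 26.8% of all genes kept, of which 25.7% rose. Sfrs2 (Srsf2), which activates exons through enhancer sequences, had 13.05, 13.10, 12.73, 12.31, 11.99 and 11.97 on days 0 to 5. Sfrs7 (Srsf7), which also carries mRNA export factors, had 11.95, 11.58, 11.46, 11.04, 10.78 and 10.74. Sfrs1 (Srsf1), a prototype of the SR proteins, had 10.84, 11.15, 10.57, 10.21, 10.03 and 10.02 and was highest on day 1. The slopes of Sfrs2, Sfrs7 and Sfrs1 were -0.26 ± 0.037, -0.25 ± 0.033 and -0.22 ± 0.050 (limma adjusted p = 0.00331, 0.00297 and 0.0118). Sfrs3, which works with the m6A reader Ythdc1, and Sfrs6 fell as well, with slopes of -0.19 ± 0.033 and -0.16 ± 0.041 (adjusted p = 0.00529 and 0.0177), and the call of Sfrs6 was lost without day 0 or 4 (0.0814 and 0.0619) and, barely, without day 1.

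Sfrs4, Sfrs5, Sfrs9 and Sfrs13a (Srsf10) were not called, with slopes between -0.09 and 0.01. Sfrs5 had 11.64, 11.59, 11.70, 11.50, 11.68 and 11.73 on days 0 to 5, a span smaller than the day 1 step of Sfrs7. The SR-related genes, which encode proteins with arginine and serine repeats outside the classic family, showed no called fall and 2 rises among the 8 kept, a share of 25% beside the 25.7% of all genes kept that rose. Sfrs12 (Srek1) had 9.86, 10.02, 10.33, 10.31, 10.53 and 10.57 and Sfrs18 (Pnisr) had 10.33, 10.33, 10.71, 10.47, 10.92 and 11.15 on days 0 to 5, both highest on day 5. Their slopes were 0.15 ± 0.033 and 0.16 ± 0.042 (limma adjusted p = 0.0121 and 0.0196). The call of Sfrs12 was lost without day 0 or 4 (adjusted p = 0.0668 and 0.0535) and that of Sfrs18 without day 0, 1, 4 or 5 (0.0521 to 0.110). The difference in slope between SR and SR-related genes was not tested.

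The 18 hnRNP genes had the highest median read number of the families on day 0, 3473.5, and counted 7 falls and 1 rise with a median slope of -0.08. Falls made up 38.9% and rises 5.6% of the 18, against 26.8% and 25.7% of all genes kept. Hnrnpf, which binds runs of G, had 14.39, 13.95, 13.96, 13.79, 13.67 and 13.46 on days 0 to 5 and fell with a slope of -0.16 ± 0.030 (limma adjusted p = 0.00606). Hnrnpa1, a repressor of exons with many pseudogenes that could share its reads, had 13.43, 13.59, 13.35, 13.18, 12.98 and 12.80 and a slope of -0.15 ± 0.032 (adjusted p = 0.0103). Hnrnpm had 12.74, 12.78, 12.75, 12.49, 12.25 and 12.01, level until day 2 and lower after. The other falls were those of Hnrnpl, which binds CA repeats, Hnrnpab, Hnrnpc, which binds runs of U, and Hnrnpd, which binds AU-rich elements. Their slopes were -0.14 ± 0.043, -0.11 ± 0.035, -0.10 ± 0.027 and -0.099 ± 0.032 (limma adjusted p = 0.0284, 0.0407, 0.0216 and 0.0395).

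Each hnRNP call was lost when some library was left out. Hnrnpf was lost without day 0 (adjusted p = 0.0534), Hnrnpa1 and Hnrnpm without day 5 (0.0537 and 0.0642), and Hnrnpl without day 0, 1 or 4 (0.0611 to 0.0903). Hnrnpc was lost without day 0, 1, 4 or 5 (0.0518 to 0.132), Hnrnpd without day 0, 1, 3, 4 or 5 (0.0576 to 0.173) and Hnrnpab without day 1, 2, 3, 4 or 5 (0.0566 to 0.116). Hnrnpr had 10.37, 10.58, 11.00, 10.76, 11.05 and 11.00 on days 0 to 5 and rose with a slope of 0.12 ± 0.042 (limma adjusted p = 0.0441), a call lost without day 0, 1, 3, 4 or 5 (0.0650 to 0.229), after median-centring (0.0710) and under quantile normalization (0.0572). The number of hnRNP falls was 2 to 6 over these cases, with 2 without day 5 and 3 without day 0, 1 or 4. Under quantile normalization Hnrnpl, Hnrnpab, Hnrnpc and Hnrnpd were not called (0.0755 to 0.224). After median-centring 11 hnRNP genes fell and none rose, and after the length correction 10 fell and 1 rose, with Hnrnpa3, Hnrnpu and Hnrnpul2 called under both.

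Hnrnpk and Hnrnpa2b1 were not called. Hnrnpk, which binds runs of C, had 13.39, 13.54, 13.44, 13.27, 13.28 and 13.20 on days 0 to 5, with a slope of -0.054 ± 0.028 (limma adjusted p = 0.138). Hnrnpa2b1 had 13.98, 14.25, 14.35, 14.02, 14.06 and 14.04, highest on day 2, with a slope of -0.018 ± 0.037 (adjusted p = 0.706). Hnrnph1 and Hnrnph3, relatives of Hnrnpf that also bind runs of G, were up on day 1, with day 1 minus day 0 at 0.61 (0.54 to 0.69) and 0.71 (0.48 to 0.94), against -0.44 (-0.48 to -0.40) for Hnrnpf. Hnrnph2 of the same group was lower on day 1, at -0.27 (-0.43 to -0.11). Over the 6 days Hnrnph1 had a slope of 0.005 ± 0.054 (adjusted p = 0.947) and Hnrnph3 0.06 ± 0.061 (adjusted p = 0.433).

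The Rbm genes, a set named for an RNA recognition motif and of mixed roles, split into 9 falls, 8 rises and 14 genes not called among 31 kept. These are 29.0% that fell and 25.8% that rose, near the 26.8% and 25.7% of all genes kept. Centring the libraries on their median, which lowers the slope of every gene by the same amount, gave 4 rises and 13 falls. Rbm19, needed for ribosomal RNA processing in the nucleolus, had 10.66, 10.71, 9.70, 9.80, 9.34 and 9.13 on days 0 to 5 and a slope of -0.33 ± 0.055 (limma adjusted p = 0.00467). Rbm28, also nucleolar, had 11.34, 11.23, 10.68, 10.72, 10.39 and 10.21 and a slope of -0.23 ± 0.036 (adjusted p = 0.00394). Rbm14, a transcriptional coactivator of paraspeckles, had 12.05, 11.55, 11.16, 10.88, 10.71 and 10.83 and a slope of -0.25 ± 0.049 (adjusted p = 0.00698). Rbm8a, the exon junction complex protein Y14, had 11.06, 10.75, 10.27, 10.08, 9.95 and 9.92 and a slope of -0.24 ± 0.042 (adjusted p = 0.00563). These 4 were each below their day 0 value on days 2 to 5, and their calls held without each library in turn.

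Rbm27, Rbm42, Rbm10 and Rbm38 fell too. Rbm27 had 11.12, 11.16, 10.38, 10.12, 10.11 and 10.05 on days 0 to 5 and a slope of -0.25 ± 0.054 (limma adjusted p = 0.0101), a call lost without day 0 (0.0508). Rbm42 and Rbm10, a regulator of exon skipping, had slopes of -0.14 ± 0.034 and -0.13 ± 0.042 (adjusted p = 0.0139 and 0.0358). Rbm38, which stabilises the mRNA of the cell cycle inhibitor p21, had 11.07, 10.95, 10.54, 10.77, 10.51 and 10.39 and a slope of -0.13 ± 0.038 (adjusted p = 0.0277). Rbm42 was lost without day 0 or 4 (0.0673 and 0.0551), Rbm10 without day 0, 1, 3 or 4 (0.0583 to 0.114) and Rbm38 without day 0, 1, 4 or 5 (0.0682 to 0.130) and after the length correction (0.0998).

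Rbmx had the steepest rise. It encodes hnRNP G, an RNA-binding protein of the X chromosome, and lies at chrX:54639206-54646213 (-) in mm9. Its reads on days 0 to 5 were 86, 159, 525, 391, 747 and 729, which gave log2 values of 7.37, 8.10, 9.85, 9.61, 9.68 and 9.77. Day 0 was lowest, day 1 intermediate and days 2 to 5 lay close together. Day 5 was 5.27-fold higher than day 0, with a slope of 0.47 ± 0.13 (limma adjusted p = 0.0207). The call was lost without day 0 (adjusted p = 0.139), day 1 (0.0581) or day 4 (0.0547).

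The retrogene copies of Rbmx were lower on day 5 than on day 0. Rbmxrt (Rbmxl1), a retrogene, had 11.94, 11.96, 11.32, 11.24, 11.17 and 11.18 on days 0 to 5 and fell with a slope of -0.18 ± 0.045 (limma adjusted p = 0.0168), a call lost without day 0 or 4 (0.0835 and 0.0570). Rbmxl2, the copy known from testis, lay below the filter. It had 350, 326, 42, 8, 6 and 1 reads on days 0 to 5, which makes it 563-fold lower on day 5 than on day 0 with a counting interval of -14.44 to -6.65 on the log2 scale. The 3 copies are closely related and their reads may have been split between them, so their sum was formed after the values were seen. The summed value was 11.64 on day 5, against 12.22 on day 0, and the Rbmx share of it was 27.4% on day 5, against 3.46% on day 0. The sum was lower on day 5 while the Rbmx share was higher.

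**Figure D4:**
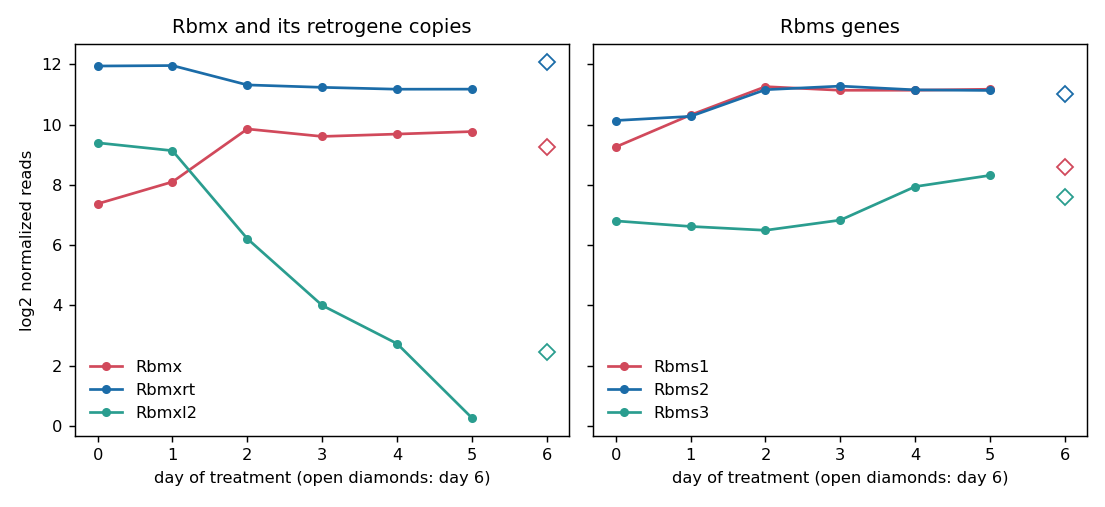
Deposited log2 value (vertical axis) by day for Rbmx and its retrogene copies (left) and for the Rbms genes (right), with lines over days 0 to 5 and open diamonds for day 6. Rbmx climbs by 2.40 by day 5 while Rbmxrt drops by 0.77 and Rbmxl2 drops to 1 read, and Rbms1 and Rbms2 reach the same level from day 2.

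The Rbms genes encode proteins first found as binders of single-stranded DNA near Myc. Rbms1 (chr2:60590009-60801261 (-), mm9) had 9.26, 10.32, 11.26, 11.14, 11.14 and 11.17 on days 0 to 5, and its relative Rbms2 had 10.13, 10.27, 11.16, 11.28, 11.15 and 11.13. Rbms1 stepped up on both days 1 and 2, Rbms2 on day 2, and both were flat from then on. Their slopes were 0.34 ± 0.10 and 0.22 ± 0.067 (limma adjusted p = 0.0303 and 0.0317). The call of Rbms1 was lost without day 0, 1, 3 or 4 (0.0524 to 0.188), and that of Rbms2 without day 0, 1 or 4 (0.0780 to 0.174) and after the length correction (0.0659). Rbms3 lay below the filter, with 58 reads on day 0 and 266 reads on day 5.

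The other rising Rbm genes had smaller slopes. Rbm9 (Rbfox2), which binds UGCAUG beside alternative exons, had 11.04, 11.26, 11.41, 11.23, 11.50 and 11.86 on days 0 to 5. Rbm5, a regulator of apoptosis gene splicing, had 10.68, 10.85, 10.98, 10.81, 11.11 and 11.42. Rbm3, a cold-inducible protein, had 11.11, 11.25, 11.48, 11.56, 11.63 and 11.69, higher on each day than the last. Rbm4, a splicing regulator of muscle and neuronal exons, had 8.53, 8.90, 9.04, 9.09, 9.16 and 9.18, and Rbm18 had 8.91, 9.45, 9.47, 9.51, 9.51 and 9.79. The slopes of Rbm9, Rbm5, Rbm3, Rbm4 and Rbm18 were 0.13 ± 0.038, 0.12 ± 0.038, 0.12 ± 0.029, 0.12 ± 0.039 and 0.13 ± 0.044 (limma adjusted p = 0.0267, 0.0339, 0.0149, 0.0434 and 0.0405). Every one of these 5 calls was lost without day 0 (0.0883 to 0.250) and without day 4 (0.0607 to 0.127), and those of Rbm4 and Rbm5 also without day 1 (0.0622 and 0.0592), of Rbm4 and Rbm18 without day 3 (0.0770 and 0.0691), and of all but Rbm3 without day 5 (0.0765 to 0.208). After median-centring Rbm9, Rbm5, Rbm4 and Rbm18 were not called (0.0519 to 0.0767). After the length correction Rbm9 was not called (slope 0.06, adjusted p = 0.257), and under quantile normalization Rbm4 and Rbm18 were not (0.224 and 0.0995). Without day 0 or day 4 none of the 8 Rbm rises was called by limma, and without day 1 those of Rbm3, Rbm9 and Rbm18 were.

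Rbm47 had its lowest values early and was not called. It encodes a cofactor of mRNA editing that is enriched in endoderm, and had 9.50, 8.08, 8.40, 9.66, 10.24 and 9.71 on days 0 to 5, from 378, 157, 192, 407, 1101 and 700 reads. It was low on days 1 and 2 and highest on day 4, with a slope of 0.25 ± 0.15 (limma adjusted p = 0.192). Without day 0 alone Rbm47 was called as a rise, with a slope of 0.51. Rbm15 and Rbm15b, adaptors of the m6A methyltransferase, were not called. Rbm15 had 9.26, 9.35, 9.28, 9.12, 9.14 and 8.65, lowest on day 5, with a slope of -0.11 ± 0.044 (adjusted p = 0.0734), and Rbm15b had 9.56, 9.84, 10.38, 10.08, 10.18 and 10.05, highest on day 2, with a slope of 0.091 ± 0.056 (adjusted p = 0.211).

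Below the filter lay 9 genes, of which 7 are Rbm and 2 are SR-related genes, and they were not tested. Besides Rbmxl2 and Rbms3 these were Rbm41, Rbm43, Rbm44, Rbm4b, Rbmx2, Sfrs12ip1 and Sfrs17b. Rbm44, a protein of germ cell bridges in mice, had 30, 65, 31, 14, 35 and 24 reads on days 0 to 5, highest on day 1. Sfrs12ip1 (Srek1ip1), the partner of Sfrs12, had 77, 69, 105, 103, 297 and 300 reads on the same days.

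Per kilobase of transcript, the hnRNP and Sm genes stood highest. On day 0 the normalized reads per kilobase were 9396 for Hnrnpf, 8694 for Snrpg, 6233 for Hnrnpa1, 5906 for Snrpd2 and 5383 for Hnrnpk, against a median of 333 for all genes kept. The family medians per kilobase on days 5 and 0 were 1676 and 3202 for the Sm core, 2135 and 2483 for hnRNP genes, 751 and 1680 for SR genes and 1193 and 1502 for SF3 genes. Hnrnpf ranked at the top on both days, and Snrpg ranked at place 5 on day 5 after place 2 on day 0.

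Among the 27 symbols with several transcripts the median spread of slopes between transcripts was 0.010, and only Hnrnpul1 had slopes of opposite sign, -0.01 and 0.02. The spread was widest for Sfrs13a, with slopes of -0.17 and -0.09, and for Rbm3, with slopes of 0.06 to 0.12 over 4 transcripts. Transcripts of a symbol share exons and can share reads, so these rows are not separate evidence.

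By size alone, 17 of the 99 genes were at least 2-fold lower on day 5 than on day 0 and 3 were at least 2-fold higher, where 14.1% and 20.9% of all genes kept passed these sizes. The lower ones included 6 of the 8 Sm genes, and the higher ones were Rbmx, Rbms1 and Prpf39. On day 1 the sizes were small. Only Rbms1 was at least 2-fold higher than on day 0, as were 6.06% of all genes kept, and only Rbm47 was at least 2-fold lower, as were 1.96% of all genes kept. Rbms1 stood at 1.06 (0.87 to 1.26) and Rbm47 at -1.43 (-1.70 to -1.15) (day 1 minus day 0, log2, counting interval). The next lower ones were Snrpn at -0.80 (-0.89 to -0.72), Snrpd2 at -0.52 (-0.63 to -0.41), Rbm14 at -0.49 (-0.59 to -0.40) and Snrpd3 at -0.47 (-0.59 to -0.35). The next higher ones were Rbmx at 0.73 (0.34 to 1.12), then Hnrnph3 and Hnrnph1, Rbm18 at 0.53 (0.30 to 0.77) and Rbm4 at 0.36 (0.09 to 0.64). Rbms1 was under 2-fold on day 1 after quantile normalization, median-centring or the length correction. These comparisons have no replicate check.

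On day 6 the values followed transcript length. Of the 99 genes 41 were above day 5 on day 6, against 32.7% of all genes kept, with 23 at least 2-fold higher (18.6% of all genes kept) and 37 at least 2-fold lower (51.7% of all genes kept). The 8 Sm genes and the 4 U1 and U2 genes were all above day 5, by medians of 2.74 and 2.30, and the SR-related genes, with a median length of 3982.5 nt, were all below, with a median difference of -2.31. Snrpg, the shortest at 397 nt, was at 13.78 on day 6, against 10.62 on day 5. Set against the curve of all genes on length, the Sm genes lay from -0.32 to 0.96 around it. A change in these genes at day 6 and the length pattern cannot be told apart.

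Some transcripts lay far from that curve. Hnrnpd, of 6819 nt, was 0.47 above day 5 where the curve gives -3.18, and Hnrnpa3 was 0.62 above where the curve gives -2.72. Rbm8a was 2.38 above (curve -0.79), Rbm34 1.01 above (curve -1.64), Hnrnpa2b1 0.22 above (curve -2.15) and Rbms2 stood at -0.13 (curve -2.74). On the other side day 6 minus day 5 was -2.59 for Rbms1 (curve -0.89), -2.94 for Rbm15 (curve -1.48) and -2.52 for Hnrnpul1 (curve -1.09). It was -1.59 for Sfrs16 (curve -0.22), -2.52 for Rbm15b (curve -1.23) and -0.98 for Rbm38 (curve 0.36). Rbm15 had 5.71 on day 6, against 8.65 on day 5. These are differences of single libraries with no test.

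**Figure D5:**
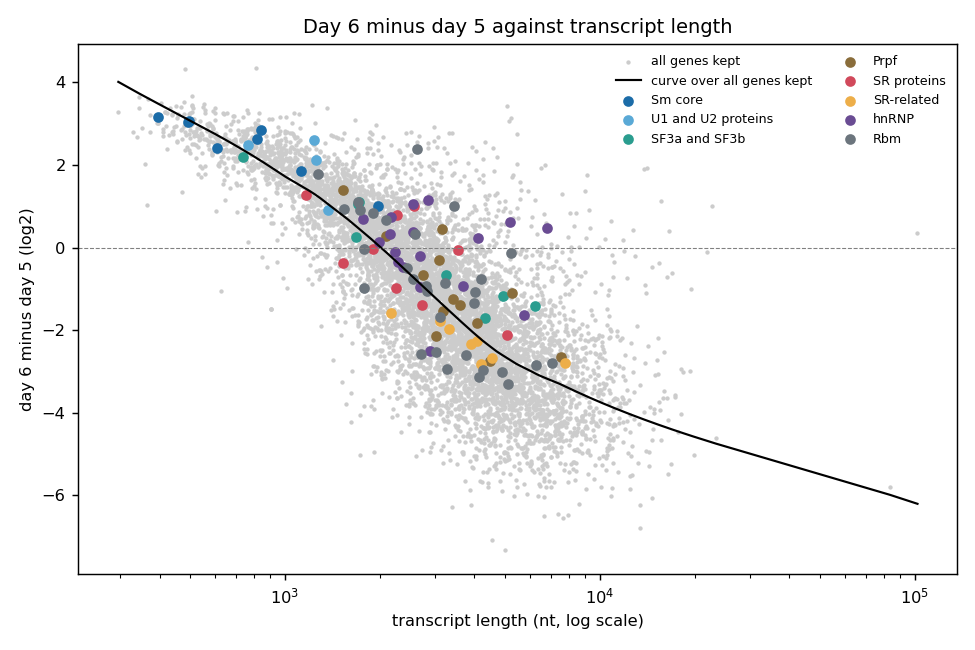
Day 6 minus day 5 (log2, vertical axis) against transcript length (nt, log scale) for all 7242 genes kept (grey), with the curve over them (black) and the 99 splicing and hnRNP genes coloured by family. The short Sm genes lie above 0 along the curve, and hnRNP genes of over 4000 nt such as Hnrnpd and Hnrnpa3 lie above the curve.

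Genes of the same pathway outside the name rule were set beside these, in lists that overlap. Son is counted among the spliceosome components and the alternative splicing regulators, and Sart3 among the spliceosome components and the snRNP assembly genes. Of all genes kept 26.8% fell and 25.7% rose. Of 67 genes kept from a list of other spliceosome components, which includes Lsm1 and Lsm11, 41 fell and 4 rose. Their median slope was -0.15, and 28 to 40 fell and 1 to 4 rose when each library was left out. The 4 with the smallest p all fell: the cyclophilins Ppil1 and Ppih, Lsm2 of the U6 ring and U2af1, which reads the end of the intron, with slopes of -0.37, -0.29, -0.29 and -0.31. Of 13 snRNP assembly genes, which load the Sm ring onto its RNA, 10 fell and none rose, with a median slope of -0.26. Wdr77 and Prmt5, which methylate Sm proteins, Clns1a, which chaperones them, and Gemin5 of the SMN complex had slopes of -0.37, -0.41, -0.26 and -0.41 (limma adjusted p = 0.0024, 0.00273, 0.0032 and 0.00334). Outside these lists, Snrnp70, the U1 protein that the name rule misses, fell with a slope of -0.12 (adjusted p = 0.0383), as did 0610009D07Rik, today's Sf3b6, with -0.14 (adjusted p = 0.0163).

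The kinases of SR proteins and the other regulators were mixed. Their counts stand beside 26.8% of all genes kept that fell and 25.7% that rose. Of 8 SR protein kinases, which include Prpf4b of the 99 genes, Clk1, Srpk2 and Clk4 rose with slopes of 0.22, 0.19 and 0.18 (limma adjusted p = 0.00497, 0.0150 and 0.0155), and Srpk1 fell with -0.20 (adjusted p = 0.0152). After the length correction Srpk2 was not called (slope 0.12, adjusted p = 0.0696). Of 32 alternative splicing regulators 11 fell and 8 rose, where 26.8% of all genes kept fell and 25.7% rose. After the length correction 13 of them fell and 5 rose. Ptbp1, the repressor of neuronal exons also known as hnRNP I, was at 13.30 on day 5, against 14.12 on day 0 (slope -0.19, adjusted p = 0.0036), and its relative Ptbp2 was at 10.13 on day 5, against 7.91 on day 0 (slope 0.41, adjusted p = 0.0161). Mbnl1 and Mbnl2, known for repressing the splicing pattern of embryonic stem cells, rose with slopes of 0.41 and 0.51 (limma adjusted p = 0.00312 and 0.00288). The rises among these regulators numbered 3 without day 0 or 4 and 5 without day 1 or 5, and the falls 7 without day 0 or 5 and 6 without day 4. Among the kinases the fall was lost without day 0, and 1 rise was called without day 5.

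Of 13 genes kept from an m6A list that counts Zfp217, 4 fell and none rose by limma, where 26.8% of all genes kept fell. They were Ythdf1, Zfp217, Mettl3 and Ythdf2, with slopes of -0.17, -0.21, -0.17 and -0.10 (adjusted p = 0.00516, 0.0094, 0.0290 and 0.0385), and 2 or 3 fell when each library was left out, with 1 rise without day 1 or day 5. After the length correction 5 of the 13 genes fell and none rose. Beside the falls of the splicing genes, 11 of 13 proliferation genes fell and none rose, and 4 of 5 stem cell markers kept fell. Of the markers of other cells, 9 of 10 extraembryonic endoderm, 6 of 6 fibroblast and 3 of 3 neural progenitor genes kept rose, where 25.7% of all genes kept rose. Listed markers below the filter were not tested and were mixed. Thy1 and Sox1 were at 4.51 and 5.30 on day 5, against 7.76 and 6.56 on day 0. Pax6 peaked at 9.60 on day 2 and was at 7.93 on day 5, against 7.71 on day 0. Zic1, Postn, Foxa2 and Sox17 were higher on day 5 than on day 0. The part of the markers and proliferation genes in the courses of the splicing genes was not tested.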

How the data were processed

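RNA of the cell line CCE was sequenced in 7 libraries, 1 per day, from Trizol extracts, with ribosomal RNA removed and a stranded kit, per the labels' protocols. The submitters' processing notes name BWA 0.7.3 and mm9. The way reads were counted and scaled was not given in the sources used here. For each day the authors deposited log2 values per RefSeq transcript. Raised from the log, 100% of values of up to 1000 reads lay within 0.05 of a whole multiple of the library's lowest value, taken as 1 read.

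Each symbol was given by its transcript with the highest mean, and the filter kept genes whose mean exceeded the 40th percentile. Both means were taken over all 7 libraries, so day 6 entered them. A line on day was fitted to days 0 to 5 in R 4.3.3 by limma 3.58.1, two-sided, with variances shrunk towards a trend on the mean (4 residual degrees of freedom before shrinkage) and Benjamini-Hochberg adjustment, after a test on simulated data. The adjusted p-values measure the spread of single libraries around a line. Single days were compared by size, with exact binomial (Clopper-Pearson) 95% intervals of the reads, which cover counting error only because PCR copies cannot be told from molecules.

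The genes, their families and the lists were chosen with earlier results of these data known. Named genes were the 12 steepest called slopes each way that kept their sign without each library in turn, the 6 largest day 1 differences each way, the 6 genes farthest from the day 6 length curve each way, genes below the filter that were 4-fold apart with at least 20 reads, 4 genes at most of each list, and fixed examples. Other genes were named after their values were seen. Of the fixed examples, Rbm20, Rbm24 and Rbm46 were not among the symbols of the deposited table. Alternatives were other scalings, filters, an offset, summed transcripts, voom weights, a length correction and libraries left out.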

Additional observations from a re-analysis of the deposited data

How the results depend on the processing

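The counts depended most on which libraries entered. With day 6 included, 0 genes rose and 5 fell by limma, against 12 and 42 over days 0 to 5, and over all genes kept 116 rose and 274 fell, against 1858 and 1943. Among the genes called over days 0 to 5, the slopes with day 6 changed sign for Hnrnpab (0.022), Hnrnpc (0.038), Rbm42 (0.0014), Rbm8a (0.063), Sf3b5 (0.055), Snrpa1 (0.093), Snrpc (0.14), Snrpd1 (0.21), Snrpd2 (0.12), Snrpd3 (0.026), Snrpe (0.21), Snrpf (0.036), Snrpg (0.13), Rbm5 (-0.056), Rbm9 (-0.17), Rbms1 (-0.015), Sfrs12 (-0.12) and Sfrs18 (-0.13). Genes that were not called changed sign too, among them Rbm15b (-0.21) and Rbm47 (-0.15). Leaving out each library of days 0 to 5 gave 1 to 12 rises and 25 to 43 falls among the splicing genes, and 1038 to 2005 rises and 1240 to 1960 falls among all genes. Median-centring, which lowers every slope by the same amount, gave 7 rises. With no filter 3132 of all genes rose, and with a filter at the 60th percentile 1191 did. With no filter 5 genes in place of 3 were at least 2-fold higher on day 5 than on day 0. The count at least 2-fold higher on day 1, 1 gene, was 0 under quantile normalization, median-centring and the length correction. The cause of these changes was not tested, apart from what some settings hold by construction. These are fewer or more genes and libraries, and the shared slope shift of median-centring. Voom weights, an offset of 10 reads, summed transcripts and a filter on days 0 to 5 changed no call among the 48 named genes tested. No paired analysis was possible because each day has 1 library. With 1 library per day no difference between days has a replicate, and for genes with few reads counting error is wide.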
